A study of Mus musculus with 10 samples.

Results

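H3K27me3 occupancy around transcription start sites was compared between 2 mouse retina libraries, one made late in gestation (E17.5, in embryonic days) and one at postnatal day 1 (PN1), the days on either side of birth. All 20045 gene symbols in the deposited table were used, which is every symbol of the series, reduced from 25152 entries by keeping for each symbol the entry with the largest sum over 8 libraries. The series holds 10 samples, of which 8 have values in the table: each of H3K27me3 and H3K4me2 was profiled before birth (E17.5) and on postnatal days 1, 7 and 15 (PN1, PN7, PN15). Each library came from a pool of at least 20 retinas, and there was 1 library for each mark and stage. The labels give the strain of every library as Pde6b (rd1/rd1) mutant mice, a line that loses its rods. The study's methods, however, name C57BL/6j and rd1/rd1 mice, the latter as a rod subtraction control. Its text describes the developmental patterns as those of wild type retina. The labels and the methods also give swapped antibody catalogue numbers for these marks. The sex of the pooled animals was not given in the sources used here.

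H3K27me3 is placed by Polycomb repressive complex 2 on the chromatin of genes that are silent in a cell type, above all on CpG-rich promoters of developmental regulators. H3K4me2 is found at promoters that are active or can be activated, and many developmental promoters carry both marks. In the mouse retina, progenitors still divide at birth, ganglion, amacrine, horizontal and cone cells have mostly been born, and rods, bipolar cells and Mueller glia are still being made. Whole retina was used, so a change in a cell type's share and a change within cells cannot be told apart.

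The values are normalized occupancies, the reads within 2.5 kb on either side of a start site scaled by the authors and rounded to whole numbers. With 1 library a side there is no test, and differences are given as log2 of (PN1 + 1) over (E17.5 + 1). Intervals printed for single genes are 95% exact binomial intervals of the read ratio, and they cover counting error only. They rest on the value of 1 read, which was read from the spacing of the rounded values as 0.819 units at PN1. At E17.5 it was taken as 1 unit, the largest value tried, so counting error there is an upper limit over the values tried. Over all symbols the H3K27me3 values summed to 708563 at E17.5 and 816382 at PN1, a ratio of 1.15. At PN7 and PN15 the sums were 651036 and 480567, and values of those stages were not rescaled. Setting the E17.5 and PN1 sums equal takes 0.20 off the log2 change of genes with dense mark and less off sparse ones. Values with equal sums are given below beside the medians they change most. H3K4me2 at 9 retinal regulators had a median of 104 at E17.5 and 64 at PN1, and at E17.5 the 9 values lay between 20 and 137. At 11 genes of muscle, liver, skin, blood, pigment epithelium, vessels and microglia the medians were 6 and 8, and the E17.5 values lay between 1 and 33.

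Start-site sequences of genes named below are shown first, because the median change in the mark varied with CpG content. Single genes need not follow that trend. Each is the 250 bases before the annotated start in mm9, written 5′ to 3′ on the gene's strand, with CpG in capitals. They were chosen after their values were seen. Sox2 is a progenitor regulator with a large rise, Hoxa10 had the highest PN1 value, and Piga and Zdhhc15 are X-linked genes with lower values at PN1.
Sox2, chr3:34548677-34548926, plus strand: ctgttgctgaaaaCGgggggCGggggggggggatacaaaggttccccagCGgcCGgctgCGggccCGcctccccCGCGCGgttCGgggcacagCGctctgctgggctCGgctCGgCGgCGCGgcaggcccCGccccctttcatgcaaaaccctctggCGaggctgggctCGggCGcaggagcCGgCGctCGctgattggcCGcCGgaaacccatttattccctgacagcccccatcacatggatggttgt
Hoxa10, chr6:52190854-52191103, minus strand: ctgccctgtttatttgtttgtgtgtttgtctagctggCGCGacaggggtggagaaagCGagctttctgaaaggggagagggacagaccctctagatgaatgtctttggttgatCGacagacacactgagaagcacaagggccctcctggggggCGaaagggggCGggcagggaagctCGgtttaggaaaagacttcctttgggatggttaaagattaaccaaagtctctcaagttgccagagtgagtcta
Piga, chrX:160857475-160857724, plus strand: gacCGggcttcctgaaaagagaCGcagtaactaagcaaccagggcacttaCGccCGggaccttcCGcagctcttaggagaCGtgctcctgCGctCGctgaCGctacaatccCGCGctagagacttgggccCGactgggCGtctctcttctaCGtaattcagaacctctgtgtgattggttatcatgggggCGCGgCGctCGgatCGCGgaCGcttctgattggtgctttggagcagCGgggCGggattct
Zdhhc15, chrX:101866404-101866653, minus strand: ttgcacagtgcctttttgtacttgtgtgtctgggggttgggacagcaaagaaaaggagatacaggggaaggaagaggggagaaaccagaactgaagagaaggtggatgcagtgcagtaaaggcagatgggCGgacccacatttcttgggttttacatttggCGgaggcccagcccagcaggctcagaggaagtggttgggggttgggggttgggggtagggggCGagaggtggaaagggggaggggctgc
These stretches hold 25 CpG in Sox2, 7 in Hoxa10, 23 in Piga and 3 in Zdhhc15, against a median of 10 over 19353 placed symbols and of 11 (quartiles 5 and 19) over those with a mean of at least 20. Over the called symbols that could be placed, the median was 13 CpG (quartiles 7 and 22) in 85 that were at least 2-fold higher at PN1 and 3 (1.5 and 12.5) in 19 that were at least 2-fold lower, counting symbols with a mean of at least 20. At that level 1.63% of all symbols were 2-fold higher and 0.356% 2-fold lower. Of the 19, 7 were X-linked, and X-linked symbols of that level had a median of 7.

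H3K27me3 was higher at PN1 in most genes with dense mark, and centred on 0 or below where the mark was sparse. Over all symbols the median log2 change was 0.00, with quartiles of -0.38 and 0.39, and 49.1% of symbols were higher at PN1. Among the 5336 symbols whose mean of the 2 libraries was at least 20, the median was 0.20 and 72% were higher at PN1. With the sums set equal the median of the same symbols was 0.00, with 2693 higher and 2643 lower. The median went from -0.15 below a mean of 10 to 0.13 at 20 to 40, 0.22 at 40 to 80, 0.20 at 80 to 160, 0.21 at 160 to 320 and 0.32 at 320 and over. In the densest class, 510 of 539 symbols were higher at PN1, and its median occupancy went from 406 to 511. With the sums set equal, the medians of the classes from 20 to 320 lay between -0.07 and 0.02, that of the densest class was 0.12 and that of the sparsest was -0.31. The level includes the PN1 value itself. With the level taken from E17.5 alone, the densest class exceeded the sparsest by 0.30 in median change in place of 0.47, the sparsest class was at 0.00 and the lowest median was -0.22 at 10 to 20.

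**Figure D1:**
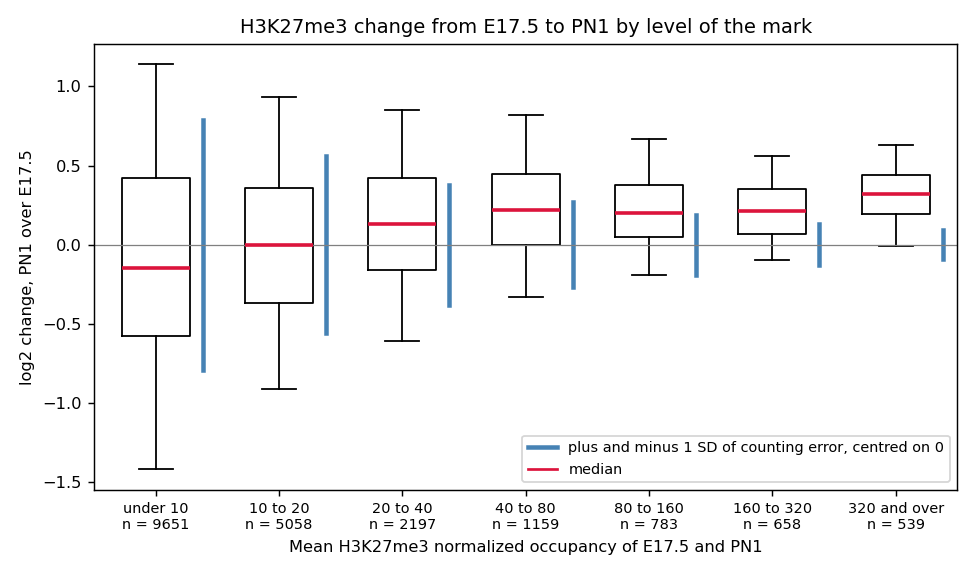
Log2 change of H3K27me3 from E17.5 to PN1 in 7 classes of the mean occupancy of the 2 libraries. Boxes span the quartiles, whiskers the 5th to 95th percentiles, and red lines mark medians. Blue bars give 1 SD of counting error, as an upper limit and without the pseudocount, on each side of 0. The medians go from -0.15 in the sparsest class to 0.32 in the densest.

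The spread of the change exceeded the upper limit of counting error in dense genes. At 320 and over the spread estimated from the quartiles was 0.18, against at most 0.09 from counting alone. Below a mean of 10 it was 0.74 against 0.79. The counting values leave out the pseudocount, which narrows the change of sparse genes, so the values of this class cannot be compared. Without a second library a stage, developmental change and differences between library preparations cannot be told apart in the excess of dense genes. Across all symbols 5.77% were at least 2-fold higher and 8.27% at least 2-fold lower, but 1069 of the 1156 rises and 1638 of the 1657 falls had a mean under 20. With a mean of at least 20, 87 symbols were 2-fold higher (1.63%) and 19 were 2-fold lower (0.356%). With the sums set equal and the minimum applied to the rescaled values, there were 21 rises and 39 falls. The excess of rises therefore depends on the scaling. A rise or fall below means a change past 2-fold with a mean of at least 20. That mean includes PN1, and the median E17.5 value of the 87 rises was 20. C030006K11Rik, at 16 and 33, was just inside the threshold, and Bspry, at 87 and 174, was just outside. Above a mean of 80 there were 9 rises and no fall among 1980 symbols. This level includes the PN1 value. Among the 1881 symbols with at least 80 at E17.5 alone there were 3 rises and 1 fall, Crebzf (96 to 32).

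Genes that specify the eye field or keep retinal progenitors dividing made up the list with the largest median change. All 29 members had a higher value at PN1, and all 29 stayed higher with the sums set equal. Of the 21 with a mean of at least 20, 8 rose and none fell, against a background of 1.63%. Their median log2 change was 0.88, where the medians of all symbols in the same level classes centre on 0.21, and their median occupancy went from 39 to 77. Their median H3K4me2 was 104 at E17.5 and 64 at PN1. Among all symbols with a mean of at least 20 and a mean H3K4me2 of 75 and over, 9.95% rose. The median change of those symbols was 0.35. With the sums set equal, 4 of the 21 list members stayed past 2-fold. So did 26 of all 5336 symbols, the minimum mean being applied before rescaling.

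Sox2, which keeps neural progenitors undifferentiated and lies at chr3:34548927-34551383, had an H3K27me3 value of 26 at E17.5 and 75 at PN1. The log2 change was 1.49 and its counting interval 0.89 to 2.22. At PN7 and PN15 the values were 112 and 182, so Sox2 was higher at each stage sampled. Nr2e1, the orphan nuclear receptor also called Tlx, went from 65 to 169, a change of 1.36 (0.97 to 1.80).

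Rax, required for the eye to form, went from 17 to 45, and Lhx2, another eye field factor, from 28 to 62. Tbx3, a T-box repressor, went from 54 to 121, and Lin28b, which blocks let-7 maturation, from 95 to 192. Hes1, the Notch effector, went from 13 to 27 and met the threshold exactly. These 5 genes and the 2 above are among the 8 rises of the list. Of these, Rax and Hes1 were under 20 at E17.5 and reached the minimum mean only through PN1. Sox9 (39 to 77) and Foxn4 (28 to 53) came close to 2-fold, with changes of 0.96 and 0.90.

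Some of the best known eye field genes had almost no mark on either side of birth. Pax6 had 4 units at E17.5 and 15 at PN1, then 113 at PN7 and 178 at PN15. Six3 had 3 and 10, and Six6 had 3 and 7, where 3 reads were taken as 3 units at E17.5 and 2.46 at PN1. Sfrp2, a secreted Wnt antagonist, had 4 and 18 before 80 and 82 at the later stages. Six3 and Six6 had counting intervals that included 0, and those of Pax6 (0.28 to 3.90) and Sfrp2 (0.61 to 4.17) did not. At PN1 these 4 genes were still below the value of 20 used as a minimum.

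**Figure D2:**
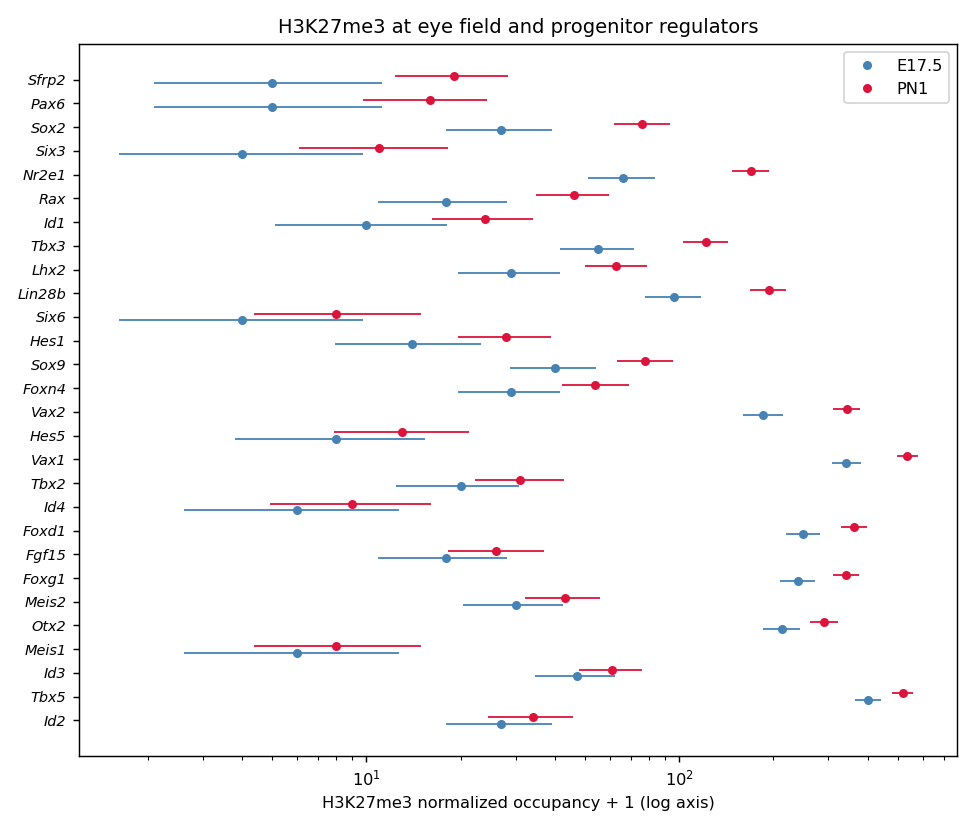
H3K27me3 normalized occupancy plus 1, on a log axis, at E17.5 (blue) and PN1 (red) for 28 of the 29 eye field and progenitor regulators, ordered by change, with 95% Poisson counting intervals as bars. Every red point lies to the right of its blue point, from Id2 (26 and 33) at the bottom to Sfrp2 (4 and 18) at the top.

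Notch, Wnt, Fgf and Hedgehog signalling act in progenitors, and 3 lists of their genes were added after the values had been seen, so their directions are no independent evidence. Of 12 Notch pathway genes with a mean of at least 20, whose median change was 0.63 (0.42 with the sums set equal), 4 rose (1 with the sums set equal): Lfng (34 to 84), Notch1 (32 to 66), Heyl (28 to 57) and Hes1. Notch2 was at 36 and 27 and Notch3 at 22 and 20. Fzd2, a Wnt receptor, had the largest rise with a mean of at least 40 of any gene with a described product, from 32 to 108, a change of 1.72 (1.19 to 2.36). Fzd7, its relative, went from 35 to 75. These were 2 rises among 15 Frizzled receptors and Wnt antagonists, whose median of 0.27 lay near the 0.21 of their level classes. Equal sums left 1 rise and a median of 0.07. Fgfr3 (138 to 291) and Fgfr1 (20 to 44), receptors for fibroblast growth factors, and Gli2 (24 to 51), an effector of Hedgehog signalling, were the 3 rises among 14 genes of those pathways, whose median was 0.41. Equal sums gave a median of 0.21, and none of the 14 then reached 2-fold. Wnt, Fgf and Bmp ligands, a list that was not added later, had no rise among 42 members with a mean of at least 20 and a median of 0.23, beside 0.21 for its level classes and 0.03 with the sums set equal.

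Fetal growth and timing genes had a median change of 0.73 over 8 members with a mean of at least 20, 3 of them rises, and of 0.36 over all 14. Under equal sums none of the 8 reached 2-fold and their median was 0.53, and 0.30 when the minimum was applied to the rescaled values. Hmga2, a chromatin protein of fetal stem cells, went from 40 to 82 and then to 158 at PN7. Trim71, a target of let-7, went from 13 to 30 and then to 156. Its E17.5 value was under 20, so it reached the minimum mean only through PN1. Lin28b is also in this list. Igf2bp1, an RNA-binding protein of fetal tissue, went from 16 to 32 with a change of 0.96, and Grb10 was at 264 and 298.

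Cell cycle genes had little of the mark. Only 4 of 34 had a mean of at least 20: Ccnd1, Ccnd2, Cdk6 and Rrm2, none past 2-fold. The median of these 4 was 0.84 (0.64 with the sums set equal), and that of all 34 was 0.10. Ccnd1, the main D cyclin of retinal progenitors, went from 71 to 134 with a change of 0.91 (0.51 to 1.34) and reached 222 at PN7. Ccnd2 went from 322 to 603, a change of 0.90 (0.71 to 1.10). Cdk4, at 22 and 16, had a mean of 19 and an interval that included 0.

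Other rises among the 12 largest with a mean of at least 40 were Zfp36l2 (23 to 59), Tgif1 (25 to 62), Itga5 (25 to 61), Nlrp10 (30 to 69) and Irx5 (81 to 182). Zfp36l2 promotes mRNA decay, Tgif1 is a repressor of TGF-beta signalling, Itga5 is the fibronectin receptor's alpha chain, and Irx5 is a homeodomain factor of bipolar cells. The largest of all was 4930525F21Rik, from 39 to 141. Its H3K4me2 values of 56, 9, 0 and 261 over the 4 stages moved unlike those of the others, and another start site lies within 5 kb of its own. Among the 85 rises that could be placed, 11 had another start site within 5 kb, so that their windows share reads. The same held for 613 of the 5186 placed symbols with a mean of at least 20.

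Genes of differentiated retinal neurons changed less, apart from horizontal cell genes. All 8 horizontal cell genes were higher at PN1, with a median change of 0.63 (0.42 with the sums set equal). Prox1, which specifies horizontal cells and is also found in dividing progenitors, was their rise, from 55 to 119. Calb1, the calcium-binding marker of horizontal cells, had 50 and 100, just under the threshold with the pseudocount. Ganglion cell genes had a median change of 0.38 (0.17 with the sums set equal) over 22 members with none past 2-fold. Pou4f2, the ganglion cell specifier, was at 365 and 507, and Thy1, a ganglion cell surface protein, at 263 and 284. At PN15 these 2 genes were at 223 and 86.

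Amacrine cell genes had a median of 0.32 (0.12 with the sums set equal) over 19 members, and Tcfap2b, an amacrine and horizontal cell factor, was at 297 and 447. Neurod6, a bHLH factor of an amacrine subset, was the only fall in these lists, from 30 to 13. Bipolar cell genes had a median of 0.17, and 2 of 15 rose: Irx5 and Gnao1 (21 to 43). Neither reached 2-fold with the sums set equal, and the median of the 15 was -0.04, or 0.02 when the minimum was applied to the rescaled values. Grm6, the glutamate receptor of ON bipolar cells, was at 451 and 457, a change of 0.02 (-0.16 to 0.20). Proneural bHLH factors had a median of 0.30 (0.10 with the sums set equal), close to the 0.32 of their level classes.

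Photoreceptor genes mostly carried little H3K27me3 on either side of birth. Of 34 rod and shared photoreceptor genes, 12 had a mean of at least 20, none rose or fell, and their median was 0.32 (0.12 with the sums set equal). Over all 34 it was 0.02, with 17 higher and 15 lower. Crx was at 8 and 6, Nr2e3 at 8 and 12, Nrl at 19 and 25 and Sag at 6 and 10. The counting intervals of these 4 genes all included 0. Abca4, the retinoid transporter of outer segments, was among the few with dense mark, at 169 and 174, and was at 105 and 37 at PN7 and PN15. The 5 cone genes with a mean of at least 20 had a median of -0.11 (-0.30 with the sums set equal) and all 12 had one of 0.05, with Cnga3 at 50 and 69 and Rxrg at 37 and 26.

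The densest H3K27me3 lay on Hox genes, which pattern the trunk and are silent in the retina. All 39 Hox genes were higher at PN1, 38 of them also with the sums set equal, and none reached 2-fold. At E17.5 their values ranged between 464 and 809, and at PN1 between 657 and 1125, with a median change of 0.42 (0.21 with the sums set equal). Hoxa10, at chr6:52181196-52190853, had 800 and 1125, a change of 0.49 (0.37 to 0.62). The median change was 0.49 in the Hoxa cluster, 0.42 in Hoxb, and 0.39 in both Hoxc and Hoxd. Genes of a cluster are neighbours, so the 39 values are not independent. The rest of the time course went the other way for the Hox genes, with medians of 654 at PN7 and 318 at PN15. The H3K27me3 sum over all symbols also fell, from 816382 at PN1 to 651036 and 480567. A later fall was therefore not particular to the Hox genes.

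Other families of developmental factors were compared with the 0.32 that the level classes of their members, and of the Hox genes, had as a median. Pax, Lhx, Nkx, Irx, Dlx and Gata factors, with the relatives of Six3, had 0.41 over 50 members, 49 of them higher at PN1, forkhead factors 0.46 over 31 and Sox and Tbx factors 0.43 over 25. These 3 medians were 0.20, 0.25 and 0.23 with the sums set equal. Polycomb genes themselves mostly had sparse mark. Of the core and accessory genes of complex 2, only Phf19 had a mean of at least 20 (70 to 105), and Ezh2, its catalytic subunit, was at 2 and 3. Of complex 1, 7 of 17 genes passed this level and all 7 were higher, with a median of 0.54 (0.33 with the sums set equal), while over all 17 the median was 0.28, with 9 higher and 7 lower. Among the 7 were Cbx8 (178 to 321, 0.85) and Cbx7 (127 to 194).

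Families of neuronal surface proteins had medians at or below those of their level classes. Neurotransmitter receptor subunits had a median change of 0.09 over 74 members, which became -0.11 with the sums set equal, and potassium channel subunits 0.18 over 68, which became -0.02. Gria2, an AMPA receptor subunit, was at 54 and 30, a change of -0.83 (-1.48 to -0.20), and Kcna2, a Shaker-type channel, at 80 and 50. Axon guidance genes had a median of 0.19 over 29 members (-0.01 with the sums set equal). Slit2, a repellent for axons, rose from 13 to 30, while Slit3 was at 371 and 393 and Ntn4 at 41 and 23. Clustered protocadherins had a median of -0.04 over 12 members (-0.23 with the sums set equal). Outside these families, 62 olfactory receptor genes with a mean of at least 20 had a median of 0.24 (0.05 with the sums set equal), and all 1044 had one of 0.00.

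**Figure D3:**
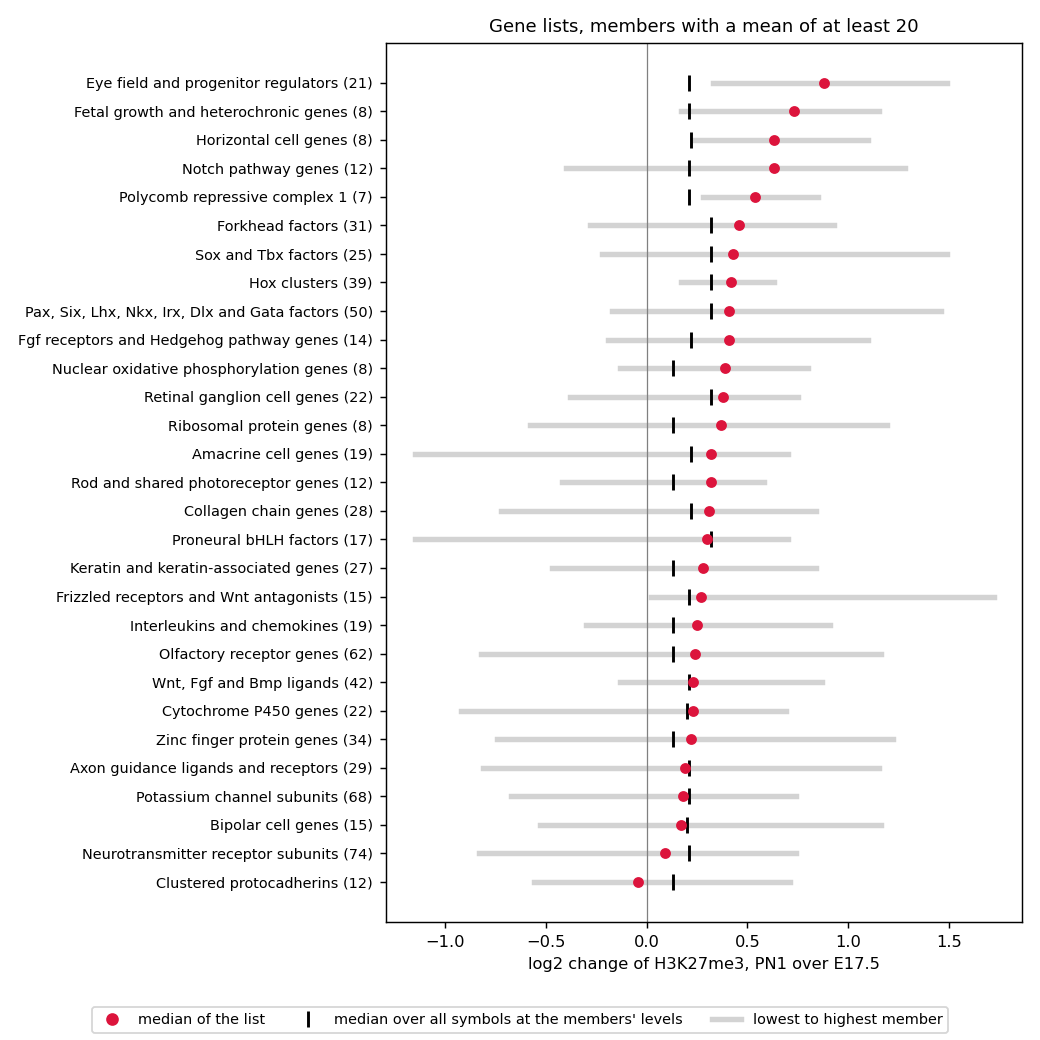
Log2 change of H3K27me3 for the 29 gene lists with at least 6 members of mean occupancy 20 or more (number of members in brackets). Red points are list medians, black ticks the median change of all symbols in the members' level classes and grey bars the lowest to highest member; eye field and progenitor regulators are at the top with 0.88 and clustered protocadherins at the bottom with -0.04.

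The genes that rose carried much H3K4me2. Over the 87 rises the median H3K4me2 was 60 at E17.5 and 41 at PN1, against 35 and 24 over the 5230 symbols of mean 20 or more that neither rose nor fell. H3K4me2 was lower at PN1 in most of the library, which is the background for this difference. The median H3K4me2 change was -0.54 (95% interval of the median -0.69 to -0.46) at the rises and -0.48 (-0.49 to -0.46) at the others, and the intervals overlap. In classes of like H3K27me3 level the rises and the others had medians of -0.48 and -0.40 at 20 to 40, and of -0.74 and -0.49 at 40 to 80. It was lower in 80 of 87 rises (92%) and in 80.1% of the others. Sox2 went from 104 to 56 in H3K4me2.

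Within each class of H3K27me3 from 20 upward, the median H3K27me3 change was larger at an H3K4me2 of 75 and over than at 10 to 25. At a mean H3K27me3 of 80 to 160, the median was 0.14 for the 209 genes with a mean H3K4me2 of 10 to 25 and 0.45 for the 35 genes with 75 and over. At 160 to 320 the corresponding medians were 0.13 over 230 genes and 0.52 over 14. Genes with an H3K4me2 under 10 lay between, at 0.24 over 76 and 0.16 over 56. Under equal sums the medians at 10 to 25 were -0.07 in both classes, and those at 75 and over were 0.25 and 0.32. For all symbols with a mean of at least 20, the share of rises was 1.01% at an H3K4me2 under 10 and 0.172% at 10 to 25. It was 1.39% at 25 to 50, 3.11% at 50 to 75 and 9.95% at 75 and over. In the same order these were 10, 2, 30, 26 and 19 rises, and 2, 1, 8, 5 and 10 with the sums set equal. Across the same 5336 symbols, the H3K27me3 change had a Spearman correlation of 0.14 with the mean H3K4me2 and of -0.11 with its change. These are weak correlations across genes that share 4 libraries.

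**Figure D4:**
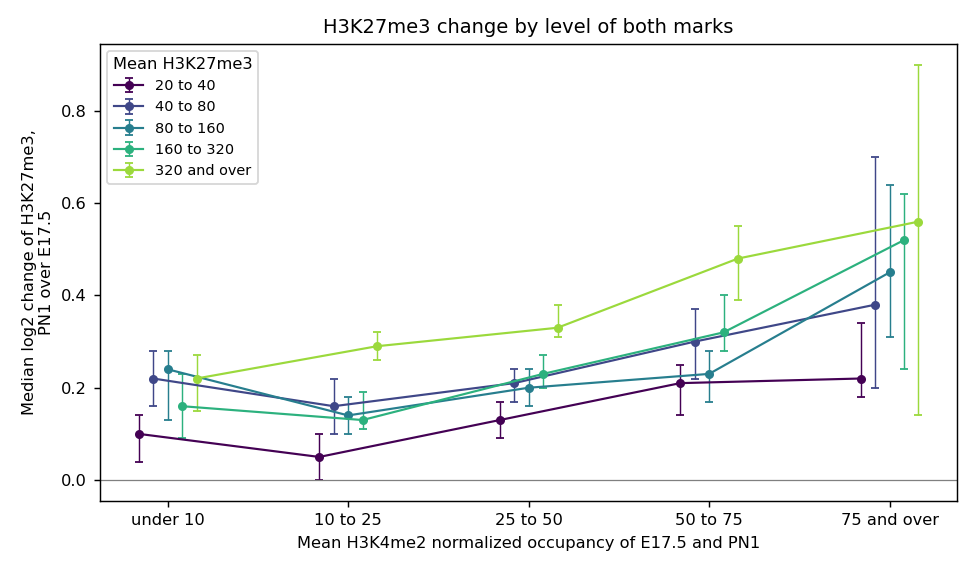
Median log2 change of H3K27me3 (vertical axis) by mean H3K4me2 occupancy (horizontal axis), with one line for each class of mean H3K27me3 and 95% intervals of the median as bars. Every line is higher at an H3K4me2 of 75 and over than at 10 to 25, as from 0.14 to 0.45 for H3K27me3 of 80 to 160.

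The change also varied with the CpG content of the 5 kb around the start site, taken as the observed count of CpG over that expected from the C and G present. Of symbols with a mean of at least 20, 5186 could be placed on mm9. The median change was 0.14 at a ratio of 0.2 to 0.3, 0.21 at 0.4 to 0.5 and 0.39 at 0.6 and over. These were -0.06, 0.01 and 0.19 with the sums set equal. Above a mean of 80 the last class had 0.42 over 232 symbols, and its occupancy went from 274 to 352. Sox2 had a ratio of 0.795, Nr2e1 0.643, and Fzd2 0.664. Hoxa10 had 0.398, Piga 0.349 and Zdhhc15 0.299. The part of base composition bias between the 2 libraries was not tested. By GC content alone the medians went from 0.11 under 45% to 0.30 at 55% and over, and from 0.18 to 0.30 on the autosomes. The first 2 were -0.10 and 0.10 with the sums set equal. By CpG ratio the autosomal medians were 0.15 at 0.2 to 0.3 and 0.40 at 0.6 and over.

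H3K27me3 on the X chromosome went against the rest of the genome. At a mean of at least 20 the 250 X-linked symbols had a median change of -0.16 (-0.26 to -0.11), and 168 of them (67.2%) were lower at PN1. The 4936 autosomal symbols had a median of 0.22 (0.21 to 0.23), and every autosome lay between 0.18 and 0.26, or between -0.02 and 0.06 with the sums set equal. The difference was -0.37, and with the sums set equal the 2 medians were -0.35 and 0.02. Of the 19 falls, 7 were X-linked, among them Awat2 (32 to 13), Il2rg (35 to 16), Magt1 (38 to 11), Siah1b (43 to 20), Tmem27 (49 to 24) and Tnmd (28 to 12). Of the 87 rises, 1 was, the progenitor factor Sox3 (58 to 120), which was under 2-fold with the sums set equal.

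X-linked medians lay below the autosomal ones in each class of level up to 160, and few X-linked genes had dense mark. Under a mean of 10 the median was -0.32 over 386 X-linked symbols and -0.14 over 8906 autosomal ones, and at 10 to 20 it was -0.21 and 0.00. At 20 to 40 the median was -0.26 over 176 X-linked symbols and 0.16 over 1947 autosomal ones, and at 40 to 80 it was -0.18 over 46 and 0.23 over 1074. At 80 to 160 it was 0.00 (-0.09 to 0.28) over 21 and 0.21 (0.18 to 0.23) over 755, and at 160 to 320 it was 0.33 over 7 and 0.21 over 638. Over the 4 stages in order, X-linked symbols held 2.42%, 1.93%, 2.69% and 3.48% of the H3K27me3 sum of placed symbols, so PN1 was the lowest of the 4 stages. In H3K4me2 their share was 1.89% at E17.5 and 2.07% at PN1. Sums of H3K4me2 over 4 genes of the Y chromosome (Ddx3y, Kdm5d, Uty and Eif2s3y) were 45, 23, 12 and 59 in the same order, beside library medians of 41, 27, 24 and 42. The part of the pools' sex in the X-linked difference was not tested.

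**Figure D5:**
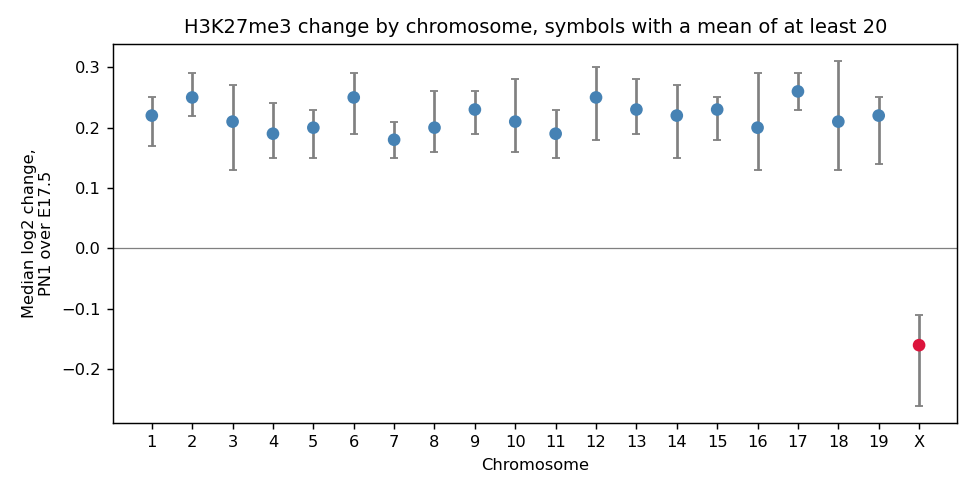
Median log2 change of H3K27me3 from E17.5 to PN1 for the symbols of each chromosome with a mean of at least 20, with 95% intervals of the median as bars. The X chromosome (red) is at -0.16, and the 19 autosomes (blue) lie between 0.18 and 0.26.

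The largest losses at single genes lay on autosomes and on the X chromosome. With a mean of at least 40, Crebzf, a bZIP regulator at chr7:97591239-97596227, went from 96 to 32, a change of -1.56 (-2.16 to -1.04), then to 6 and 31. The gene 4930519G04Rik went from 72 to 27, and these were the only falls at this level. Taco1 (53 to 27), Tmem26 (58 to 36), Piga (51 to 29), Zdhhc15 (51 to 30), Pcsk1n (63 to 41) and 4930519F16Rik (54 to 34) were lower without reaching 2-fold, the last 4 of them X-linked. A530032D15Rik (52 to 28) and C130026I21Rik (60 to 34) had values of 0 and 2 at PN7 and of 61 and 57 at PN15, and are given as uncertain.

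The medians of the genes that rose or fell stayed nearer to their PN1 than to their E17.5 values at the later stages. Over the 4 stages in order, the 87 rises had median H3K27me3 values of 20, 45, 44 and 43, and the 19 falls 34, 13, 15 and 19. The 5230 symbols that did neither had 49, 57, 50 and 40. The first 2 values of each decided whether a symbol counted as a rise or a fall, and the last 2 took no part in that threshold. The last 2 did enter the sum over 8 libraries that picked the entry kept for the 3224 symbols with several entries. For such symbols the later values were therefore not independent of the choice. Over the 21 eye field and progenitor regulators the medians were 39, 77, 112 and 132. Over the 539 symbols with the densest mark they were 406, 511, 356 and 180.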

How the data were processed

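Chromatin was digested with micrococcal nuclease and precipitated with antibodies to H3K27me3 or H3K4me2. Reads were mapped to mm9 with Bowtie 0.12.4 by the authors, and reads with several positions were removed. The deposited values are the authors' normalized occupancy scores within 2.5 kb of each RefSeq start site, rounded to whole numbers. They are not counts, so no count model was used. All 8 value columns were matched to samples by name, and the 2 remaining samples were not analysed here. The deposited table gives no read totals.

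Values were handled in Python 3.11.15 with pandas 2.3.3 and scipy 1.17.1. The log2 change used a pseudocount of 1, levels were means of the E17.5 and PN1 values, and genes were counted past 2-fold with a mean of at least 20. With 1 library a side no p-value was computed. Intervals of medians are exact binomial order-statistic intervals at 95%, which treat symbols as independent although neighbouring windows share reads. Counting intervals are Clopper-Pearson or exact Poisson intervals. The value of 1 read was found from the spacing of the rounded values, a step tested on simulated data. No value above 1 unit was tried, and the search for E17.5 returned 1 unit, the largest tried. Symbols were placed by GENCODE vM1 gene name on mm9 (19353 of 20045, 96.5%), and annotated starts may differ from the authors'. The genes named were the 12 largest rises, 12 largest falls and 10 highest levels with a mean of at least 40, the extremes of each gene list, genes named in the study and list members needed to spell out a count. Some genes that this rule selects are not reported here. Members and lists were chosen with earlier results of these data known, and the Notch, Frizzled and Fgf receptor lists and the comparison by chromosome were added after values had been seen. Alternatives were other pseudocounts, scalings, thresholds, level definitions and ways to join entries.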

Additional observations from a re-analysis of the deposited data

How the results depend on the processing

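No paired analysis was possible because each mark and stage had 1 library. The median change over all symbols was 0.00 and became -0.17 with PN1 rescaled to the same sum and 0.20 over symbols with a mean of at least 20. The densest class exceeded the sparsest by 0.47 in median change; the difference was 0.30 with the level from E17.5 alone, 0.61 from PN1 alone, 0.57 from PN7 and PN15, 0.42 with a pseudocount of 5, 0.32 with the receptor median subtracted and 0.43 with the same sum. Rises numbered 87, and 627 at 1.5-fold, 28 with a minimum mean of 40, 315 with a minimum of 10, 45 with a pseudocount of 5 and 21 with the same sum. Falls numbered 19, and 140, 2, 234, 7 and 39 under those settings in that order. The eye field median of 0.88 stayed between 0.68 and 0.90. The X chromosome difference was -0.24 over every placed symbol and -0.27 with a minimum mean of 40. The H3K4me2 change at rises was -0.74 with a minimum mean of 40. The last 2 results, and the use of every list member found, were chosen after seeing the data. Counts near the threshold are limited by depth, since a value of 20 carries few reads, and a second library at either stage would be needed to separate stage from library.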
